A study of Mus musculus with 6 samples.

Results

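The genes of the interleukin-1 (IL-1) family were examined in BV2 cells after lipopolysaccharide (LPS), with and without overexpression of PGC-1α. The family was taken as 10 genes, namely the ligands Il1a, Il1b, Il18 and Il33, the antagonists Il1rn and Il18bp, and the receptor genes Il1r1, Il1r2, Il1rap and Il1rl1. Every probe of the array whose transcript accession belonged to one of them in a table of RefSeq mouse genes was kept. This gave 19 probes, out of 56605 probes on the array, 33767 of which could be matched to 1 of 23462 genes. The rule used gene names and no measured value, but the family was picked with earlier results of these data known.

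IL-1α and IL-1β are the founding members of a family of inflammatory cytokines, and in the brain microglia are a main source of IL-1β. Both ligands bind the receptor IL-1R1, which must recruit the accessory protein IL-1RAP (encoded by Il1rap) before MyD88 and the IRAK kinases carry the signal to NF-κB. The pathway is held back by IL-1 receptor antagonist (Il1rn), which occupies IL-1R1 without signalling, and by IL-1R2, a decoy that binds ligand but lacks a signalling domain. IL-18 is neutralized by IL-18 binding protein (Il18bp), and IL-33 acts through ST2 (Il1rl1), again together with IL-1RAP. The transcripts of Il1b are induced by LPS through NF-κB, and the protein is then cut to its active form by caspase-1 in an inflammasome such as that built on NLRP3.

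BV2 is a mouse microglial line made by transformation with an oncogene. All 6 arrays were of BV2 RNA after LPS, 3 labelled as without PGC-1α overexpression (control) and 3 as with it, and none was of cells without LPS. The culture methods of the study give 500 ng/ml LPS for 6 h, without naming the arrays. PGC-1α is a transcriptional coactivator known for driving mitochondrial genes. It was delivered by a lentivirus with a ubiquitin promoter, a FLAG tag, EGFP and a puromycin resistance gene, and transduced cells were selected with puromycin. The methods mention a negative control virus, but the labels of the control arrays do not say whether those cells carried it. Nothing in the labels says that replicates came from separate cultures, so the p-values measure the spread between arrays only.

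Arrays of replicates 1 and 2 of each group lay on slide 1 and those of replicate 3 on slide 2. The 75th percentile of the intensity was 1617 to 1893 in the controls and 856 to 1268 with PGC-1α, without overlap. Values below are therefore log2 intensities minus the 75th percentile of the same array, here called scaled values, and a change is the mean of overexpression minus that of control on this scale. Ppargc1a, which encodes PGC-1α, was close to background: its probe A_51_P279038 gave intensities of 21.8, 19.6 and 9.06 on control and 22.3, 22.1 and 21.2 on overexpression arrays, and A_55_P2745394 gave 9.07 to 20.3 over the 6 arrays. The scaled values of the first were higher on all overexpression arrays, by 1.14 (exact permutation p = 0.1). Whether these probes lie in the part cloned into the virus is not given, so they are no firm check of the labels. Of the 17172 genes with a tested probe 34.6% were called higher and 18.4% lower by their brightest tested probe, and 20.1% and 19.6% after quantile normalization. Of 15 microglia and macrophage markers 13 could be tested: 6 rose, led by Itgam (0.75) and Tyrobp (0.74), and Tmem119 fell by 2.68, while Cx3cr1 and P2ry12, which define resting microglia, were not well above background on any array. After quantile normalization 0 of the 13 were higher and 2 lower. The mean scaled level of the 13 was 2.08 to 2.11 in the controls and 2.14 to 2.26 with PGC-1α. Markers of fibroblasts, endothelium and pericytes had 5 of 7 tested genes higher (Col1a2 1.12 and Col3a1 1.01) and 1 lower (Pdgfrb -1.34), at mean levels of -1.64 to -1.42 and -1.23 to -1.06. Among tested genes, 4 of 5 neuron markers (Nefm 1.20, Rbfox3 1.14, Stmn2 1.02), 2 of 4 astrocyte markers (Aqp4 0.87, Aldh1l1 0.79), 1 of 5 oligodendrocyte markers (Mag 0.97) and 2 of 3 lymphocyte and mast cell markers (Ncr1 1.10, Cd3e 0.79) rose, and 0 fell. In the controls the mean levels were -3.15 to -3.08 for the neuron list and -5.53 to -4.96 for the lymphocyte and mast cell list. Rbfox3, Ncr1 and Col3a1 were near background, with control means of -6.75, -6.05 and -6.28. Each was well above background on 5 arrays only, so it entered the test through 1 group alone. After quantile normalization the genes called higher were 4 of the fibroblast, endothelial and pericyte list (2 lower), 3 of the neuron list and 1 each of the astrocyte, oligodendrocyte and lymphocyte lists, without Aldh1l1 and Cd3e. Of 26 replication-dependent histone genes tested, 23 rose, most of all H2bc7 (2.96), H2ac4 (1.57) and H2bc14 (1.32), and 0 fell, with 15 higher after quantile normalization. The part of these differences between the groups in the changes of the IL-1 family was not tested.

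Each promoter below was taken as the 250 bases before an annotated start in RefSeq (build GRCm38.p6), and belongs to a gene with changes that follow. Il1rn also changed, but its promoters are not printed. Il1a and Il1b are near each other on chromosome 2, and Il1r1 and Il1rap encode the signalling receptor pair. Capitals mark letters found on either strand for a TATA box (TATAAA), an AP-1 element (TGANTCA), the core of the element of the ERR nuclear receptors, which PGC-1α is known to coactivate (AAGGTCA), a C/EBP element (TTNNGNAAT) and the NF-κB consensus.
Il1a, chr2:129309973-129310222, minus strand: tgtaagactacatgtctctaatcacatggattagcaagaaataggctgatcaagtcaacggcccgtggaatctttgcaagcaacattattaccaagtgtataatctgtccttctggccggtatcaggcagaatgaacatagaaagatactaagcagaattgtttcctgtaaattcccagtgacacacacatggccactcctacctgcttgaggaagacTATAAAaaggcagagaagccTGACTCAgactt
Il1b, chr2:129371140-129371389, minus strand: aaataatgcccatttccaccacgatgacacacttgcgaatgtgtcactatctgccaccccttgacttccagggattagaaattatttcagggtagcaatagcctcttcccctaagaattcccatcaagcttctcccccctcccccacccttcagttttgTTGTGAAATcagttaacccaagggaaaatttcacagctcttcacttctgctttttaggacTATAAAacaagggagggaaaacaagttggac
Il1r1, chr1:40224830-40225079, plus strand: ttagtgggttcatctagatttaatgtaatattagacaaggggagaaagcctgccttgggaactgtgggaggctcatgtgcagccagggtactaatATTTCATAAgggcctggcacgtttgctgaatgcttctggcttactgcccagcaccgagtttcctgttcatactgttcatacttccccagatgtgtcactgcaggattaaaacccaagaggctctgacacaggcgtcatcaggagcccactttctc
Il1r1, chr1:40266336-40266585, plus strand: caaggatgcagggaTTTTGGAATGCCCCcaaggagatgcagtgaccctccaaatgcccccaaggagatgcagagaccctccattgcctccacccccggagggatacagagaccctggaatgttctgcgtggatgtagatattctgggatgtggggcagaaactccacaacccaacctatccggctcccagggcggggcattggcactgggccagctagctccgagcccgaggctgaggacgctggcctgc
Il1rap, chr16:26581455-26581704, plus strand: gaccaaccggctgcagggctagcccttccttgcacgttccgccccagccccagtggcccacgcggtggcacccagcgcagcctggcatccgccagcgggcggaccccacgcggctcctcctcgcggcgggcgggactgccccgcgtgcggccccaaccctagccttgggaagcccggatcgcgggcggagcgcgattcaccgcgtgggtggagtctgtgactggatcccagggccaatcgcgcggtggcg
The TATA box letters begin 32 bases before the start of Il1a and 31 before that of Il1b, and these letters were found in 12.4% of all 32851 promoters. The AP-1 letters of Il1a begin 12 bases before its start (6.75% of all promoters), and the C/EBP letters of Il1b 91 bases before (10.2%). The second start of Il1r1 holds overlapping C/EBP and NF-κB letters that begin 236 and 232 bases before it, the latter found in 3.90% of all promoters, and the first start holds C/EBP letters alone, 155 bases before. The Il1rap window held none of the 5. The ERR letters were in 0 of the 15 promoters of the 10 genes against 4.08% of all, the AP-1 letters were in 2 of them, the C/EBP letters in 5, the NF-κB letters in 1 and the TATA box in 5. These are letters in short windows and say nothing of what binds there.

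Of the 19 probes, 13 probes of 8 genes could be tested, meaning that at least 2 values were left in either group and that the scanner software called the spot well above background on every array of 1 group or both. All of them were well above background on all 6 arrays and none was saturated. In the receptor complex Il1r1 fell by 1.42 and a probe of Il1rap fell by 1.73, and among the ligands a probe of Il1b fell by 1.43 and Il1a rose by 0.53. The other tested probe of Il1rap rose by 0.83, and the other probe of Il1b, at -0.35, did not pass an adjusted p of 0.05. The antagonist Il1rn fell at both of its probes. In all, 7 of the 13 probes passed an adjusted p of 0.05, 2 of them higher and 5 lower, in the 5 genes Il1a, Il1b, Il1rn, Il1r1 and Il1rap. The test was limma's moderated test, two-sided, with Benjamini-Hochberg adjustment over all 39295 probes tested. Of those probes 53.5% passed, 35.2% higher and 18.2% lower. Fitted with 1 value per gene, the brightest probe, 7 of 8 member genes passed, 1 higher and 6 lower. Of all 17172 genes 56.1% passed in that fit, 6295 higher and 3342 lower. With the mean of the tested probes of a gene, 5 of 8 passed, 1 higher and 4 lower, beside 9278 of all genes. In the fit to all probes, the brightest probes of the 8 genes gave 1 higher and 3 lower. With the authors' normalized values 10 of 14 member probes passed, 1 higher and 9 lower, beside 40.5% of all probes. A change of 2-fold or more downward was seen in 3 member probes and in 8.34% of all. In RNA from whole cultures, fewer cells expressing a gene and less RNA per cell cannot be told apart.

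All probes together shifted upward on this scale, with a median change of 0.25, against 0.06 after quantile normalization. Relative to that median, 11 of the 13 member probes lay below it, the exceptions being Il1a and A_52_P467232 of Il1rap. After quantile normalization 10 of the 13 passed, 2 higher and 8 lower, beside 21.6% of all probes higher and 19.7% lower. The groups did not overlap at 11 of the 13 probes, beside 63.6% of all probes with values on every array. With 3 arrays against 3, an exact permutation test cannot go below a two-sided p of 0.1. All 13 probes had the same direction of change on both slides.

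**Figure D1:**
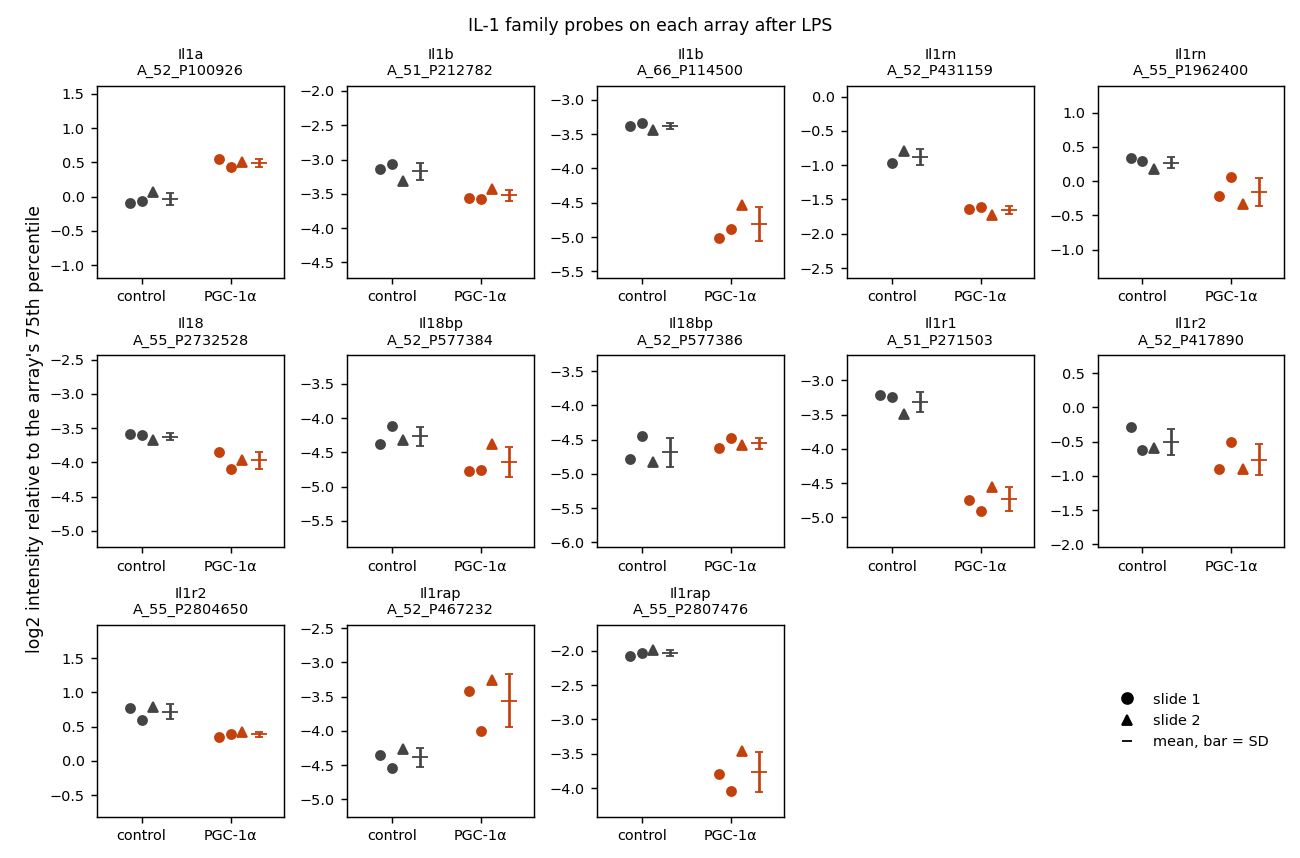
Scaled log2 intensity (vertical axis) of each of the 13 tested probes on the 3 control and 3 PGC-1α overexpression arrays, circles for slide 1 and triangles for slide 2, with the mean and SD beside the points. All panels span an equal number of log2 units, so the gap between groups can be compared by eye: it is widest for A_55_P2807476 of Il1rap, A_66_P114500 of Il1b and Il1r1, and Il1a and A_52_P467232 of Il1rap are the called probes that lie higher with PGC-1α.

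Il1a, which encodes the ligand IL-1α, had scaled values of -0.10, -0.06 and 0.07 in the controls and 0.55, 0.44 and 0.50 with PGC-1α. On this scale every overexpression array was above every control array. The intensities before scaling overlapped, at 1510 to 1980 on control and 1158 to 1792 on overexpression arrays. The rise was 0.53 (standard error, SE, of 0.13, 95% confidence interval 0.24 to 0.82, adjusted p = 0.010 from limma), or 0.28 above the median of all probes. It was 0.57 on slide 1 and 0.43 on slide 2. This gene was past the threshold under all 22 alternatives tried, with changes between 0.42 and 0.59.

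Il1b, the neighbour of Il1a on chromosome 2, was measured by a pair of probes for the same RefSeq transcript, NM_008361. At A_66_P114500 the scaled values were -3.37, -3.34 and -3.43 on control and -5.01, -4.88 and -4.54 on overexpression arrays, from intensities of 156 to 175 and 29.0 to 54.6. The groups lay far apart at this probe, and it fell by 1.43 (SE 0.16, adjusted p = 0.00051 from limma). At A_51_P212782 the scaled values were -3.13, -3.07 and -3.31 against -3.56, -3.58 and -3.43. These groups did not overlap either, but the change of -0.35 (SE 0.13, 95% confidence interval -0.66 to -0.05) did not pass, with an adjusted p of 0.054 from limma. It passed with slide as a fixed or random block (0.047 and 0.040), and under 8 of 22 alternatives in all. On slide 1 it was -0.47 and on slide 2 only -0.12, while the other probe gave -1.59 and -1.11. With normexp background correction, which models the local background of a spot and, with an offset of 50, compresses changes at low intensity, the changes of A_66_P114500 and A_51_P212782 were -0.55 and 0.0017 after scaling to the 75th percentile and -0.86 and -0.26 after quantile normalization, so the size of the change in Il1b depends on the probe and on how background is removed.

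The antagonist gene Il1rn was lower at both of its probes. The scaled values of A_52_P431159 were -0.96 and -0.80 on the control arrays of replicates 2 and 3, the spot of replicate 1 having been marked as an outlier by the scanner software, and -1.64, -1.61 and -1.72 on the overexpression arrays. Nothing overlapped, and the fit on these 5 arrays gave a change of -0.78 (SE 0.15, adjusted p = 0.0061 from limma), which was -0.85 with the outlier spot kept. The scaled values of A_55_P1962400 were 0.33, 0.29 and 0.18 on control and -0.21, 0.06 and -0.33 on overexpression arrays. It fell by 0.43, less than the other probe (SE 0.15, adjusted p = 0.040 from limma). That call was lost when any array but replicate 2 of overexpression was left out, and A_55_P1962400 passed under 12 of 22 alternatives in all. The other probe passed under all 18 that could be run for it, but these counts cannot be compared. With 2 control values it could not be fitted without control replicate 2 or 3 or within slide 1. A_55_P1962400 lost its call under each of those settings. Leaving out control replicate 1 removed no value of A_52_P431159.

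Il1r1, the signalling receptor of both ligands, had scaled values of -3.21, -3.25 and -3.49 on control and -4.74, -4.90 and -4.55 on overexpression arrays. In intensity this was 169 to 175 against 28.7 to 54.1, and the highest overexpression array was below the lowest control array by more than the spread within either group. It fell by 1.42 (SE 0.15, 95% confidence interval -1.77 to -1.07, adjusted p = 0.00047 from limma), with -1.59 on slide 1 and -1.06 on slide 2. Il1r1 passed under all 22 alternatives, but with normexp background correction the change was -0.54 after scaling to the 75th percentile and -0.86 after quantile normalization.

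The accessory receptor gene Il1rap gave opposite answers at its 2 tested probes, and the array design assigns its 3 probes to different RefSeq transcripts. The gene is known to make membrane-bound and soluble proteins from alternative transcripts. Which of these each probe detects was not worked out here. At A_55_P2807476 (NM_008364) the scaled values were -2.08, -2.04 and -1.98 on control and -3.79, -4.04 and -3.46 on overexpression arrays, from intensities of 383.5 to 479.5 and 51.9 to 115. It fell by 1.73, more than any other member probe (SE 0.17, adjusted p = 0.00032 from limma). At A_52_P467232 (NM_134103) they were -4.35, -4.54 and -4.26 against -3.42, -4.00 and -3.25. The intensities before scaling overlapped here, at 70.1 to 98.5 on control and 53.5 to 133 on overexpression arrays. On the scaled values the overexpression arrays were all higher, with a rise of 0.83 (SE 0.21, adjusted p = 0.013 from limma). This rise passed under 19 of 21 alternatives and missed the threshold with normexp followed by quantile normalization (0.36, adjusted p = 0.058) and with the authors' normalized values (0.61, adjusted p = 0.062). At A_52_P207374 (NM_001159318) no array was well above background, with intensities of 2.47 to 5.13.

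None of the remaining tested probes passed in the fit that gave the changes reported here. With slide as a fixed block, Il18 and A_55_P2804650 of Il1r2 passed (adjusted p = 0.049 and 0.045 from limma), as they did with slide as a random block (0.041 and 0.040). Over all alternatives, Il18 passed under 7 of 22 and A_55_P2804650 of Il1r2 under 11 of 22. A_52_P417890 of Il1r2 passed under 1 of 21, that with array weights (adjusted p = 0.038 from limma). Il18 (A_55_P2732528), a cytokine that like IL-1β is cut by caspase-1, had scaled values of -3.59, -3.61 and -3.68 on control and -3.84, -4.10 and -3.96 on overexpression arrays. Its groups did not overlap, and the change was -0.34 (SE 0.13, adjusted p = 0.056 from limma). For Il18bp the changes were -0.37 at A_52_P577384 (adjusted p = 0.082) and 0.13 at A_52_P577386 (adjusted p = 0.49). The latter was -0.075 after quantile normalization, and the former 0.11 with normexp and the 75th percentile (adjusted p = 0.51). The former was negative under 21 of 22 alternatives and passed under 5, and the latter was positive under 18 of 21 and passed under 0. The decoy receptor gene Il1r2 had changes of -0.33 at A_55_P2804650 (95% confidence interval -0.63 to -0.04, adjusted p = 0.056) and -0.26 at A_52_P417890 (95% confidence interval -0.65 to 0.13, adjusted p = 0.21). Both intervals include a change as large as the -0.43 at A_55_P1962400 of Il1rn. With quantile normalization Il18, A_51_P212782 of Il1b, A_52_P577384 of Il18bp and A_55_P2804650 of Il1r2 passed, with adjusted p between 0.026 and 0.049, and A_55_P1962400 of Il1rn did not (0.062).

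Il33 and its receptor gene Il1rl1 could not be tested. A_55_P2614900 of Il33 was well above background on 2 control and 2 overexpression arrays, with intensities of 18.4 to 26.8 on control and 13.9 to 17.1 on overexpression arrays, and an exact permutation test of its scaled values gave p = 0.70. The other probe of Il33 and 2 of the 3 probes of Il1rl1 were not well above background on any array. The third probe of Il1rl1, A_55_P2027737, was well above background on 1 overexpression array alone, at intensities of 7.43 to 18.0 over the 6 arrays. Without the filter on dim probes, none of the 6 untested probes passed, with adjusted p of 0.065 or more from limma.

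**Figure D2:**
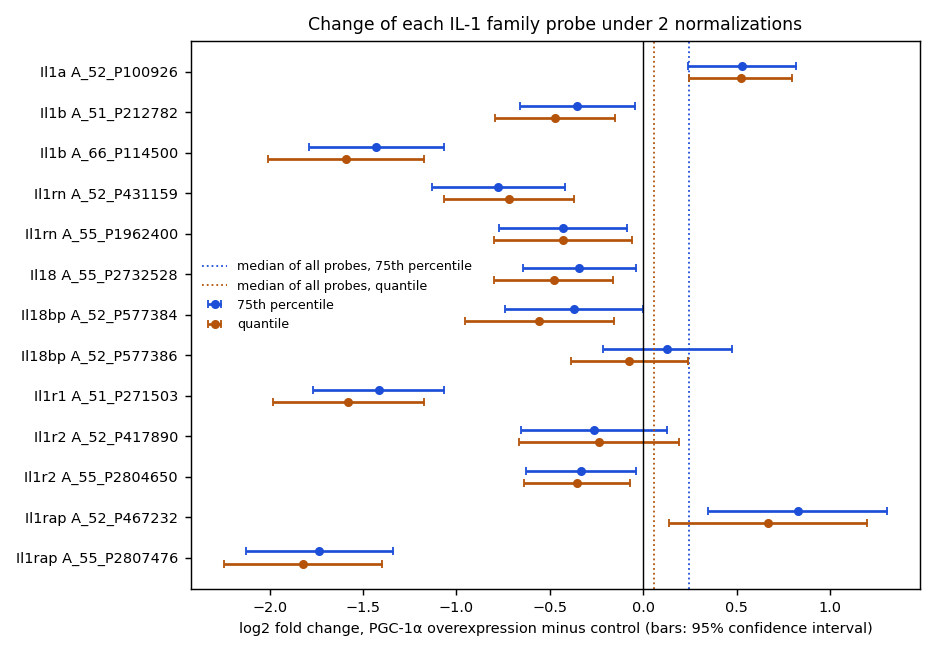
Change of each tested probe (horizontal axis, log2 fold change of PGC-1α overexpression over control, with 95% confidence intervals) after scaling to the 75th percentile and after quantile normalization, with dotted lines at the median change of all probes. Both normalizations place Il1r1, A_66_P114500 of Il1b and A_55_P2807476 of Il1rap below -1, and Il1a and A_52_P467232 of Il1rap above 0.

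Comparing 2 probes within an array removes the scaling of the array. For Il1rap the first probe minus the second, A_55_P2807476 minus A_52_P467232, was 2.27, 2.50 and 2.28 in the controls and -0.37, -0.044 and -0.20 with PGC-1α. The groups lay far apart, while the sign of such a difference has no meaning, since probes bind unequally. The change in difference was -2.56, with a standard error of 0.14 and an adjusted p of 6.4e-05 from limma fitted to all such differences, and 0.782% of the 9586 pairs of tested probes of 1 gene changed by as much in size. For Il1b, A_51_P212782 minus A_66_P114500 was 0.24, 0.27 and 0.12 on control and 1.45, 1.30 and 1.10 on overexpression arrays. The change in difference was 1.07 (SE 0.14, adjusted p = 0.0013 from limma). The pairs of Il18bp, Il1r2 and Il1rn changed by -0.50, -0.069 and 0.38, with adjusted p of 0.052, 0.80 and 0.16. Thus 2 of the 5 pairs passed, beside 25.8% of all pairs, whose median change in size was 0.30. Both probes of a pair were called in opposite directions, as for Il1rap, in 4.34% of all pairs. The exact permutation test gave the smallest p it allows, 0.1, for Il1rap, Il1b and Il18bp over 6 arrays and for Il1rn over the 5 arrays left without its outlier spot, and 0.7 for Il1r2 (0.125 and 0.7 after adjustment over the 5 pairs).

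**Figure D3:**
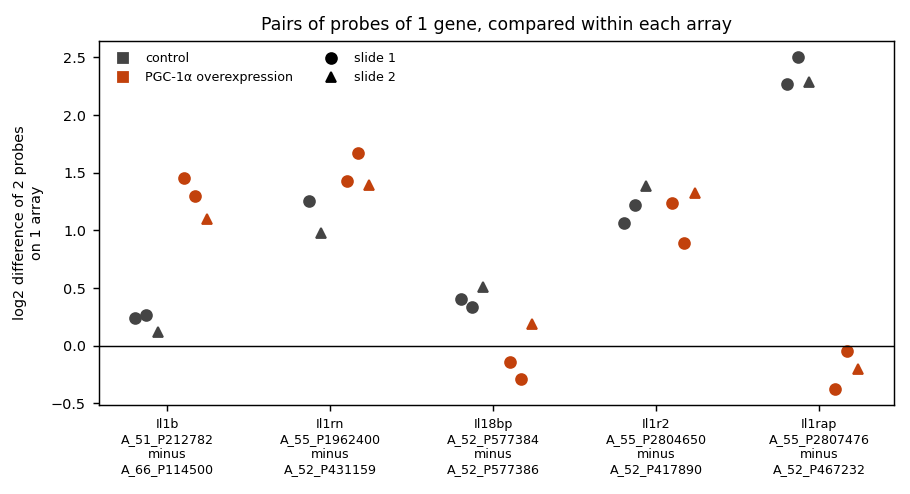
Log2 difference between a pair of probes of 1 gene (vertical axis) on each array, for the 5 genes with a pair of tested probes, with control in grey, PGC-1α overexpression in orange, circles for slide 1 and triangles for slide 2. The Il1rap difference lies between 2.27 and 2.50 on control arrays and between -0.37 and -0.044 on overexpression arrays, and the Il1r2 differences of the groups overlap.

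Ligands were also set against their antagonists, and Il1r1 against the decoy receptor, within each array, using the brighter tested probe of each gene. Il1a minus Il1rn was -0.43, -0.35 and -0.12 on control and 0.76, 0.37 and 0.83 on overexpression arrays, with means 0.96 apart and no overlap. Il1r1 minus the decoy Il1r2 was -3.99, -3.85 and -4.27 against -5.09, -5.29 and -4.98, with means that differed by -1.08, also without overlap. For Il1b minus Il1rn (A_51_P212782 and A_55_P1962400) the means differed by 0.075 and for Il18 minus Il18bp (A_52_P577384) by 0.027, with overlapping groups in both. Both of these depend on the probe: with A_66_P114500 of Il1b the difference from A_55_P1962400 was -3.71, -3.63 and -3.62 on control and -4.80, -4.94 and -4.21 on overexpression arrays, means that differed by -0.9998 without overlap, and with A_52_P577386 of Il18bp the means differed by -0.47, also without overlap (exact permutation p = 0.1 each, unadjusted). Exact permutation tests over the 6 arrays by the brighter probes gave p of 0.1 for Il1a with Il1rn and Il1r1 with Il1r2, and 0.7 and 0.9 for the others (0.2 and 0.9 after adjustment over the 4 pairs). Il33 and Il1rl1 could not be compared. Such differences compare probes within an array and give no level of either gene.

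Around the family, Sigirr, which encodes an inhibitory receptor of the family, was at -0.91 (SE 0.13, adjusted p = 0.0013 from limma). It was 1 of 11 further ligand and receptor genes, of which only it and Il1rl2, a receptor of the IL-36 cytokines (-0.23, adjusted p = 0.26, and -0.42 with 0.047 after quantile normalization), could be tested. The IL-18 receptor genes were not among those tested: Il18r1 was well above background on at most 1 array and Il18rap on 0. Across all 17172 genes, each by its brightest tested probe, the median change was 0.23, and 0.03 after quantile normalization.

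Of 24 genes of IL-1 receptor signalling, all tested, 4 rose and 3 fell by their brightest probe, with a median change of 0.09. Of all genes 34.6% rose and 18.4% fell. Those of the list that rose were Tollip (0.77), Peli2 (0.66), Ube2v1 (0.57) and Irak1 (0.48). Probes of 1 gene could differ: they spread from -1.25 to 0.46 for Irak2, -1.06 to 0.14 for Ikbkg, -0.90 to -0.03 for Traf6 and -0.28 to 0.66 for Peli2. Those that fell were Map3k8, a MAP3 kinase that relays LPS and IL-1 signals to ERK (-1.33, adjusted p = 0.00089), Tifa, an adaptor of TRAF6 (-0.91, adjusted p = 0.0020), and Irak4, the kinase that receives the signal from MyD88 (-0.85, adjusted p = 0.0020). Myd88 itself was at 0.23 (adjusted p = 0.25) and Irak3, an inhibitory member of the IRAK family, at -0.08 (adjusted p = 0.66). After quantile normalization 1 gene of the list was higher and 4 were lower, beside 20.1% and 19.6% of all genes.

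Of 20 genes of IL-1 processing and release, all tested, 6 rose and 5 fell, with a median of 0.27, beside 34.6% and 18.4% of all genes. By the brightest tested probe of each gene, Nlrp3, the sensor of the best known inflammasome, changed most (-1.65, SE 0.17, adjusted p = 0.00037 from limma). The tested probes of P2rx7 spread from -1.68 to 0.21, the brightest being at 0.21, and those of Aim2 from -1.13 to -0.06, the brightest being at -0.06. Txnip, a thioredoxin inhibitor that can bind NLRP3, rose by 1.29 and Mefv, which encodes the sensor pyrin, by 1.25 (adjusted p = 0.00051 and 0.0055), although the brightest of several probes stood for each and the lowest probe gave 0.46 and 0.53. Casp4, the sensor of intracellular LPS, fell by 0.67 (adjusted p = 0.033), and Casp1, the protease that cuts IL-1β, was at -0.22 (adjusted p = 0.28). Pycard, the inflammasome adaptor ASC, rose by 0.50 and Gsdmd, the pore that releases IL-1β, by 0.45 (adjusted p = 0.042 and 0.043), but neither passed after quantile normalization (0.40 and 0.13, adjusted p = 0.097 and 0.49). In that normalization 2 genes of the list were higher and 6 lower, with a median of -0.01, beside 20.1% and 19.6% of all genes.

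**Figure D4:**
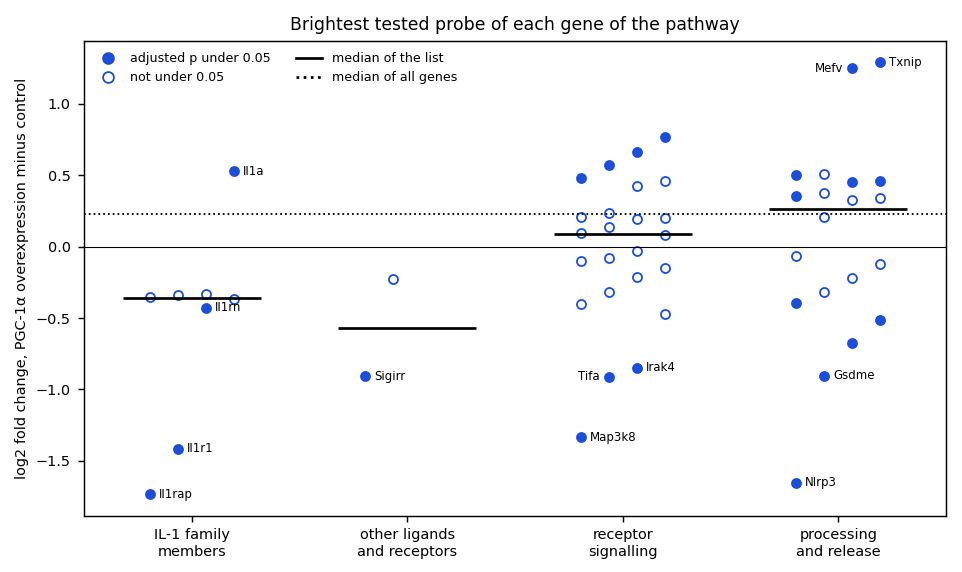
Change of the brightest tested probe of each gene (vertical axis, log2 fold change of PGC-1α overexpression over control) in 4 gene lists, with filled points for genes past an adjusted p of 0.05, a bar at the median of each list and a dotted line at the median of all 17172 genes. The median of the family, -0.36 over 8 genes, lies below that of all genes, and the receptor signalling and processing lists spread to both sides of it.

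By their profile over the 6 arrays, each centred on its own mean, the 3 genes closest to Il1b (A_51_P212782) among 16234 others with values on every array were Ptpn11, Cse1l and Gpr135, at Euclidean distances of 0.08, 0.09 and 0.09 log2 units. The 3 closest to Il1rn (A_55_P1962400) were Hbq1a, B4galnt1 and Azin2, at 0.08, 0.10 and 0.10. Their changes lay between -0.43 and -0.29. This is a description of 6 arrays, in which many genes share a 2-group pattern.

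The effect of the processing differed between probes. Il1a, A_66_P114500 of Il1b, A_52_P431159 of Il1rn, Il1r1 and A_55_P2807476 of Il1rap passed under every alternative that could be run for them. With normexp and the 75th percentile, dim probes with negative changes moved toward 0, with Il18 at -0.0092, Il1r1 at -0.54 and A_55_P2807476 of Il1rap at -1.11. A_52_P431159 of Il1rn, a brighter probe, changed by -0.79 under that setting.

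**Figure D5:**
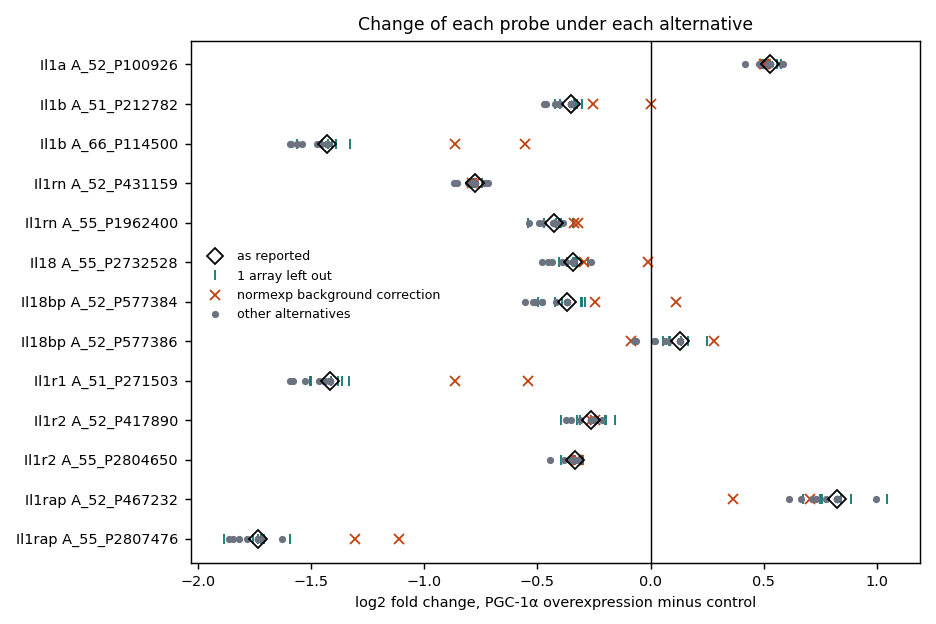
Change of each tested probe (horizontal axis, log2 fold change of PGC-1α overexpression over control) as reported (diamonds), with each array left out (bars), with normexp background correction (crosses) and under the other alternatives (dots). The crosses stand apart for the dim probes of Il1b, Il1r1, Il18, Il18bp and Il1rap, and Il1a and A_52_P431159 of Il1rn stay within 0.42 to 0.59 and -0.87 to -0.72.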

How the data were processed

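RNA of BV2 cells was read on 6 1-colour Agilent arrays. Per the file headers, Feature Extraction 11.5.1.1 made the deposited intensity values, with the background subtracted and no normalization between arrays. The authors also deposited log2 values normalized in GeneSpring by an unnamed procedure, in which each array has a median of 8.29, used here as an alternative. The labels name the dye Cy3 and the methods Cy5. The files hold the green channel only.

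Log2 intensities were scaled to the 75th percentile of the 59305 non-control spots of each array, without outlier spots (149 to 1590 on an array), and spots of the same probe were averaged. Accessions were matched to RefSeq genes (GRCm38). The array design names another build, so no gene coordinates are given besides those of RefSeq promoters. Groups and replicates came from the labels. limma 3.58.1 in R 4.3.3 was run on all probes that passed the filter, and tested on simulated data first. Python 3.11.15, numpy 2.4.6, pandas 2.3.3 and matplotlib 3.10.9 were used. The fit to pairs of probes and the other probes in ligand pairs were chosen after seeing the data. The members and lists were chosen with earlier results of these data known. Named genes are the 10 members, the 3 largest called changes of each other list, and Nlrp3, Pycard, Casp1, Casp4, Gsdmd, Il18r1, Il18rap, Sigirr, Myd88 and Irak3. The signalling genes that rose, and genes named for the spread of their probes, were added after seeing the data. Alternatives were other scalings, normexp (offset 50, on median signals), other filters, slide or replicate blocks, other variance models, the authors' values, 1 value per gene, a fold threshold and leaving out each array. Precision is bounded by having 3 arrays in a group and, for dim probes, by the background.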

Additional observations from a re-analysis of the deposited data

How the results depend on the processing

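Over 278 combinations of a tested member probe and an alternative (averages over a gene aside), 229 kept direction and side of the threshold, 32 passed where the reported change had not, 12 were lost and 5 turned direction. The 5 were A_51_P212782 of Il1b (0.0017) and A_52_P577384 of Il18bp (0.11) with normexp and the 75th percentile, and A_52_P577386 of Il18bp with quantile normalization (-0.075), normexp and quantile (-0.088) and the authors' values (-0.065). The 7 member probes past the threshold became 11 with scaling to the median and 12 with array weights, beside 19237 and 25357 of all 39295 probes. They became 3 with a change of at least 1 required, and 5 to 7 with an array left out. All probes past the threshold, 21018, became 9637 and 9278 when 1 value stood for a gene (brightest probe or mean, fewer features tested), 6446 with a change of at least 1, and 15566 to 20923 with an array left out. Quantile normalization moved the share of lower calls from 34.1% to 47.7%. When probes were averaged by gene, Il1rap was at -0.45 (adjusted p = 0.063 from limma), since its probes moved in opposite directions.

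Whether the replicate numbers pair the arrays is not known. Correlations of deviations were -0.21, 0.00 and 0.59 for same-numbered arrays, and not every array correlates best with its own number. These correlations cannot decide the question, since deviations cancel out within a group and so constrain each other. The same-numbered arrays at 0.59 also shared a slide that held no other array. With a replicate block 7 member probes and 22815 of all probes passed. Slide as a fixed block or as a random block gave 10 member probes each, adding A_51_P212782 of Il1b, Il18 and A_55_P2804650 of Il1r2. Of all probes 24216 and 23381 passed with these blocks, against 21018 without a block.

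The pair differences of Il1rap (-2.56) and Il1b (1.07) passed by limma fitted to all pairs (adjusted p = 6.4e-05 and 0.0013), where the exact test cannot. With normexp and the 75th percentile both were smaller in size. The probes of Il1rap then changed by -1.11 and 0.70, and those of Il1b by 0.0017 and -0.55. With an array left out the pair differences of Il1rap and Il1b ranged from -2.64 to -2.48 and from 0.99 to 1.17. Those of Il18bp ranged from -0.63 to -0.39, of Il1rn from 0.24 to 0.52 and of Il1r2 from -0.16 to 0.061. The last turned without control replicate 3 (0.010) or overexpression replicate 2 (0.061). The difference of Il1b and Il1rn turned with the authors' values (-0.015) and without overexpression replicate 3, over a range of -0.056 to 0.21, and that of Il18 and Il18bp with normexp (-0.12), without control replicate 2 (-0.042) or overexpression replicate 1 (-0.10), over -0.10 to 0.15. With other tested probes of the same genes, chosen after seeing the data, Il1b and Il1rn turned to -0.9998 and -0.65 and Il18 and Il18bp to -0.47, while Il1b and Il1rn (0.44), Il1a and Il1rn (1.27) and Il1r1 and Il1r2 (-1.15) kept their direction. The causes were not tested. With an array left out, Il1a against Il1rn ranged from 0.87 to 1.10 and Il1r1 against Il1r2 from -1.20 to -0.99. These ranges do not cover background correction. With normexp and the 75th percentile, Il1r1 changed by -0.54 and A_55_P2804650 of Il1r2 by -0.32, far closer together than in the reported comparison. Il1a changed by 0.50 and A_55_P1962400 of Il1rn by -0.34 under that setting.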
